A study of Mus musculus with 12 samples.

Results

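The laminin chains, nidogens and perlecan are the noncollagenous glycoproteins from which basement membranes are built. Their 9 genes, Lama2, Lama4, Lama5, Lamb1, Lamb2, Lamc1, Nid1, Nid2 and Hspg2, were taken by gene name from the 55401 genes of an mRNA sequencing table of mouse bone marrow mesenchymal stem cells (MSCs), and each matched 1 row. The MSCs came from C57BL/6 mice, were bought from a supplier and were sequenced as 12 libraries in 4 groups of 3. Control MSCs were untreated. The TGF-β1 group received TGF-β1 at 5 ng/mL for 24 h. The other groups received the same dose of TGF-β1 in the culture supernatant of sorted M-MDSCs (CD11b+ Ly6G- Ly6C high, monocytic) or sorted G-MDSCs (CD11b+ Ly6G+ Ly6C low, granulocytic). These myeloid-derived suppressor cells had been induced from bone marrow cells with GM-CSF and IL-6. No group analysed here received a supernatant without TGF-β1. The paper names different culture media for MSCs and MDSCs, and no group received TGF-β1 in MDSC medium that had held no cells. What the MDSCs released and the medium itself therefore cannot be told apart. Nothing states that the 3 libraries of a group came from separate cultures, so p-values measure the spread between these libraries, which may be technical.

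Laminins are secreted as trimers of 1 α, 1 β and 1 γ chain. The α chain carries the sites that bind cell receptors and is needed for the trimer to leave the cell, while β and γ chains can pair without it. Trimers polymerize into a sheet, nidogens bridge that sheet to type IV collagen, and perlecan, a heparan sulfate proteoglycan encoded by Hspg2, holds growth factors and binds both networks. In bone marrow, stromal and endothelial cells lay down such matrix around sinusoids. The question asked of these genes was how their mRNA levels differed between untreated MSCs, MSCs driven towards myofibroblasts by TGF-β1, and MSCs given TGF-β1 with each supernatant.

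The nidogen bridge rests on a short stretch of the laminin γ1 chain, which nidogens bind. The coding sequence of this stretch is shown because Lamc1 and the nidogen genes gave very different values below. The stretch lies in exon 14 of the 28 exons of Lamc1-201, in coding sequence, at chr1:153243361-153243381 of GRCm38 on the minus strand. A search of the translated GENCODE transcripts of 11 laminin genes found it in 1 gene, Lamc1. The 63 bases at chr1:153243340-153243402 follow, with the 7 codons of the binding stretch in capitals.
Lamc1 exon 14: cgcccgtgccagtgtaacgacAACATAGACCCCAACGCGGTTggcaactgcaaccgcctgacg

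Promoter sequences of 3 genes are shown because 2 of them, Lamb1 and Lamb2, encode alternative β chains that moved in opposite directions, and the other, Nid1, had the highest level of the 9 genes in untreated cells. They come from RefSeq on GRCm38.p6, which gave an entry for 6 of the 9 genes, and run from 250 bases before to 50 bases after the gene's start. Capitals mark exact matches on either strand to CAGACA (a SMAD site, TGTCTG on the other strand) or GGGCGG (an SP/KLF site, CCGCCC on the other strand). The windows are chr12:31265043-31265342 for Lamb1, chr9:108479612-108479911 for Lamb2 and chr13:13437352-13437651 for Nid1, all on the plus strand.
Lamb1 promoter: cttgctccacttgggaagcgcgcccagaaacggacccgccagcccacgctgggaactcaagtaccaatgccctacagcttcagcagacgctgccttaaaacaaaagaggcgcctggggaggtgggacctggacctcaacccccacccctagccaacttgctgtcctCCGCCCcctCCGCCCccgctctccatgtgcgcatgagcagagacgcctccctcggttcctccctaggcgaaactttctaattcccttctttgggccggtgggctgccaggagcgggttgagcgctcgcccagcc
Lamb2 promoter: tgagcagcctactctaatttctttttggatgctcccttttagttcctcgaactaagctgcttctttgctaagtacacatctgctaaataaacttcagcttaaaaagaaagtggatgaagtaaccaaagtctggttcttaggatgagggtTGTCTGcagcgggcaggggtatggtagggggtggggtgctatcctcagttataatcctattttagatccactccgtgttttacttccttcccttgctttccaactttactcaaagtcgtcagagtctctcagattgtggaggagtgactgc
Nid1 promoter: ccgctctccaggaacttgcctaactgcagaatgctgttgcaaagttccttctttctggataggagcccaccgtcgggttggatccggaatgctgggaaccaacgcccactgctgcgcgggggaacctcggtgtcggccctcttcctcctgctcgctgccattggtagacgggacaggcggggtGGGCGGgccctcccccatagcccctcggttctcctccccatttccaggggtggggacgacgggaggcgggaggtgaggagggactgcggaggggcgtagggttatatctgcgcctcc

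The SMAD site occurred once in the Lamb2 window, 101 bases before the start, and in none of the other 5 windows, while 21.0% of all 32851 promoters of the table hold it. The SP/KLF site occurred 5 times in the Hspg2 window, 4 times in Lama5, 2 times in Lamb1 and once each in Nid1 and Lama2, and 35.7% of all promoters hold it. The AP-1 site TGACTCA (5.2% of all promoters) and TATAAA (13.6%) occurred in none of the 6. The Lamb2 window had a GC content of 44.0%, against 63.7% for Lamb1 and 64.7% for Nid1. A match is only a run of letters in this window and shows no binding.

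The libraries held 73977669 to 84565450 counts. FPKM is the number of sequenced fragments relative to transcript length and library size. It is the level scaled by length and was used wherever genes were compared with each other. A change was tested on counts with edgeR's quasi-likelihood F test across the 12016 genes that reached 1 FPKM in 3 or more of the 12 libraries, and a gene was called at an adjusted p-value under 0.05. The MSC label was checked against Itgb1, Cd44 and Ly6a, whose FPKM summed to 448 to 545 in every library, and against Kit and Pecam1, which summed to at most 0.218. TGF-β1 raised the known target gene Ccn2 by 2.53 on the log2 scale (adjusted p = 5.63e-10), and it lowered the MSC marker Ly6a (Sca-1) by a log2 fold change of -3.86 (adjusted p = 5.15e-09).

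In untreated MSCs, Nid1 had the highest mean level of the 9 genes, at 45.4 ± 2.49 FPKM (SD, n = 3). Hspg2 followed at 35.0 ± 3.54 FPKM, then Lamb2 at 24.2 ± 0.977 FPKM and Lamc1 at 23.8 ± 4.59 FPKM, whose libraries overlapped. Lamb1 had 17.2 ± 0.937 FPKM and Nid2 11.7 ± 0.204 FPKM. The 3 α chains lay far below the β and γ chains, with 2.30 ± 0.109 FPKM for Lama5, 0.210 ± 0.0507 FPKM for Lama2 and 0.0753 ± 0.0103 FPKM for Lama4. Apart from Lamb2 and Lamc1, neighbours in this order did not overlap between libraries.

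With TGF-β1 the order changed. Lamb1 moved from the fifth to the first place, at 26.7 ± 0.852 FPKM, and overlapped with Hspg2, which in turn overlapped with Lamc1. Nid1 came after them at 13.5 ± 0.248 FPKM and was not separated from Lamb2 at 13.3 ± 0.292 FPKM. Lamc1 and Lamb1 headed the order in both supernatant groups and overlapped with each other in each.

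**Figure D1:**
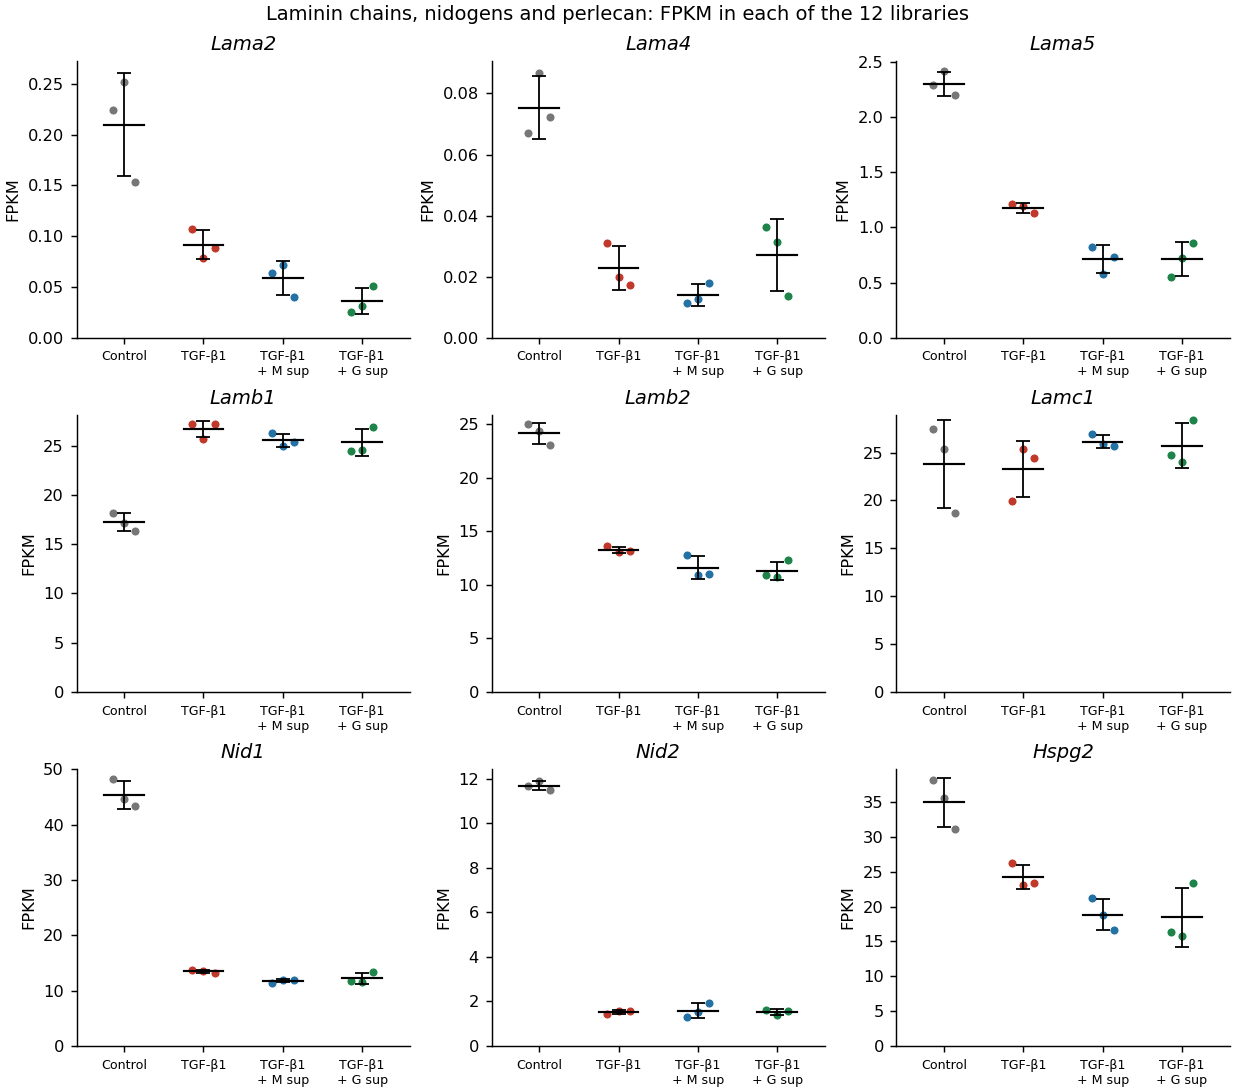
FPKM (vertical axis, starting at 0, scaled per gene) of each of the 9 genes in the 12 libraries, in 4 groups (horizontal axis; sup, supernatant). Points are libraries, long bars the mean and error bars the SD of 3 libraries. All 3 Control libraries lie above every treated library for Nid1, Nid2, Lama5, Lama4, Lama2, Lamb2 and Hspg2, and below every one for Lamb1.

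TGF-β1 alone lowered 5 of the 7 genes tested and raised 1. The nidogens fell most, Nid2 by 7.38-fold and Nid1 by 3.24-fold in the fitted model, and Lama5, Lamb2 and Hspg2 fell by 1.88-fold, 1.75-fold and 1.39-fold. Lamb1 rose 1.61-fold, and Lamc1 was not called. Over all genes tested, 34.0% were called in this comparison, 16.1% as higher and 17.9% as lower (1929 and 2153 genes). Limma on log2(FPKM + 1) split its calls differently, 1477 higher and 2725 lower, but called the same 1 higher and 5 lower among the 7. The log2 fold changes of the 7 genes had a median of -0.81, against a median of 0.00048 over all genes tested. Lama2 and Lama4 stayed under the expression filter, so these counts describe the 7 genes that passed it and not all 9. By a rule of at least a 2-fold change either way at an unadjusted p under 0.05, 2 of the 7 were called, Nid1 and Nid2, against 6.74% of the genes tested. Over all 9, the TGF-β1 and Control libraries did not overlap for 8, which was also the case for 46.7% of the genes tested.

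Among the α chains, Lama5 encodes the α5 chain of laminins 511 and 521, which many epithelial and vascular basement membranes contain. Lama5 measured 2.29, 2.41 and 2.19 FPKM in the Control libraries and 1.21, 1.19 and 1.13 FPKM with TGF-β1. The groups did not overlap, and the log2 fold change was -0.91 (SE 0.157, adjusted p = 0.00104). Lama5 thus ranked 620th from the lowest among the 12016 log2 fold changes.

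Lama2 encodes the α2 chain of muscle and nerve basement membranes. It had 319, 391 and 229 counts in Control and 161, 120 and 133 counts with TGF-β1, at most 0.252 FPKM. Lama4 encodes the α4 chain, which is found in vessel walls and fat. It had 69, 99 and 79 counts in Control and 35, 22 and 19 with TGF-β1, at most 0.0868 FPKM. For both genes every TGF-β1 library was below every Control library. In an edgeR fit without the expression filter, their log2 fold changes were -1.13 for Lama2 (adjusted p = 0.0264) and -1.64 for Lama4 (adjusted p = 0.0186).

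The β chains went in opposite directions. Lamb1 encodes the β1 chain, the common β chain of embryonic and many adult laminins, and Lamb2 encodes the β2 chain, known from neuromuscular junctions and the kidney glomerulus. Lamb1 measured 18.2, 17.2 and 16.3 FPKM in Control and 27.2, 25.7 and 27.2 FPKM with TGF-β1, a log2 fold change of 0.69 (SE 0.0515, adjusted p = 2.17e-06). Lamb2 measured 25.0, 24.4 and 23.1 FPKM in Control and 13.6, 13.1 and 13.2 FPKM with TGF-β1, a log2 fold change of -0.81 (SE 0.0721, adjusted p = 8.38e-06). Neither gene's groups overlapped, and each kept its direction and its adjusted p under 0.05 in all 21 refits (other settings and leave-one-out fits). Neither reached the 2-fold change of the fold change rule.

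Lamc1 encodes the γ1 chain shared by most laminins and the one with the nidogen-binding stretch printed above. It measured 27.5, 25.4 and 18.7 FPKM in Control and 19.99, 25.4 and 24.5 FPKM with TGF-β1, so that the groups overlapped widely. The log2 fold change was 0.023 with a 95% interval from -0.28 to 0.32 (adjusted p = 0.923). Changes within that interval in either direction are compatible with these libraries, and the sign turned in other settings. Among the 7 genes tested, the Control libraries spread most for Lamc1, with a coefficient of variation of 19.2%, and least for Nid2, with 1.74%.

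Nid1 and Nid2 encode nidogen-1 and nidogen-2, the linkers between laminin γ1 and type IV collagen. Nid1 measured 48.2, 44.6 and 43.4 FPKM in Control and 13.7, 13.5 and 13.2 FPKM with TGF-β1, a log2 fold change of -1.70 (SE 0.0595, adjusted p = 7.06e-09). Nid2 measured 11.7, 11.9 and 11.5 FPKM in Control and 1.43, 1.59 and 1.55 FPKM with TGF-β1, a log2 fold change of -2.88 (SE 0.136, adjusted p = 6.75e-08). Nid2 ranked 60th and Nid1 227th from the lowest of 12016 log2 fold changes. Both falls were many times the spread between libraries.

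The exons of Nid2 share 437 bases with those of Rtraf on the opposite strand, and the strand setting of the counting is not given in the sources used here. Rtraf measured 64.1 ± 2.03 FPKM in Control and 65.3 ± 2.88 FPKM with TGF-β1 and was not called (log2 fold change 0.084, adjusted p = 0.285). Whether reads of Rtraf are among the Nid2 counts was not tested. The Nid1 and Lama2 exons overlap Gm48682 and Gm48084, which had 0 counts in all libraries, and the exons of the other 6 genes overlap no annotated gene.

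Hspg2 encodes the perlecan core protein. It measured 38.1, 35.6 and 31.1 FPKM in Control and 26.2, 23.1 and 23.4 FPKM with TGF-β1. The groups did not overlap, and the log2 fold change was -0.47 (SE 0.149, adjusted p = 0.0315). This call was the least firm of the 6: the adjusted p rose to 0.0844 without Control replicate 1, 0.0699 without Control replicate 2, 0.0918 without TGF-β1 replicate 2 and 0.0753 without TGF-β1 replicate 3.

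In bulk libraries, fewer cells of a type and less RNA per cell cannot be told apart. The summed FPKM of 5 epithelial genes (Epcam, Cdh1, Krt8, Krt18 and Krt19) went from between 4.83 and 5.32 in Control to between 0.546 and 0.674 with TGF-β1, and only Krt19 reached FPKM 1 in all Control libraries. The fall was that of Krt19, from 4.91 to 0.256 FPKM, while the means of Krt8 (0.0566 and 0.186 FPKM) and Krt18 (0.0701 and 0.158 FPKM) were higher with TGF-β1. The sum of 12 myeloid genes went from between 6.21 and 7.21 to between 2.28 and 3.19. Of these 12, Ly6c2 (1.71 to 0.0450 FPKM) and Ly6g (1.83 to 0.0681 FPKM) were called lower, and both passed the filter only through their Control libraries (adjusted p without a filter 0.000963 and 0.0115). Csf1r, in contrast, was called higher (0.631 to 1.03 FPKM, log2 fold change 0.76, adjusted p = 0.00602). These sums moved with the fall of Lama5 and the nidogens, and their part in the result was not tested. The 8 endothelial genes summed to between 0.333 and 0.422 in Control and between 0.348 and 0.395 with TGF-β1.

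**Figure D2:**
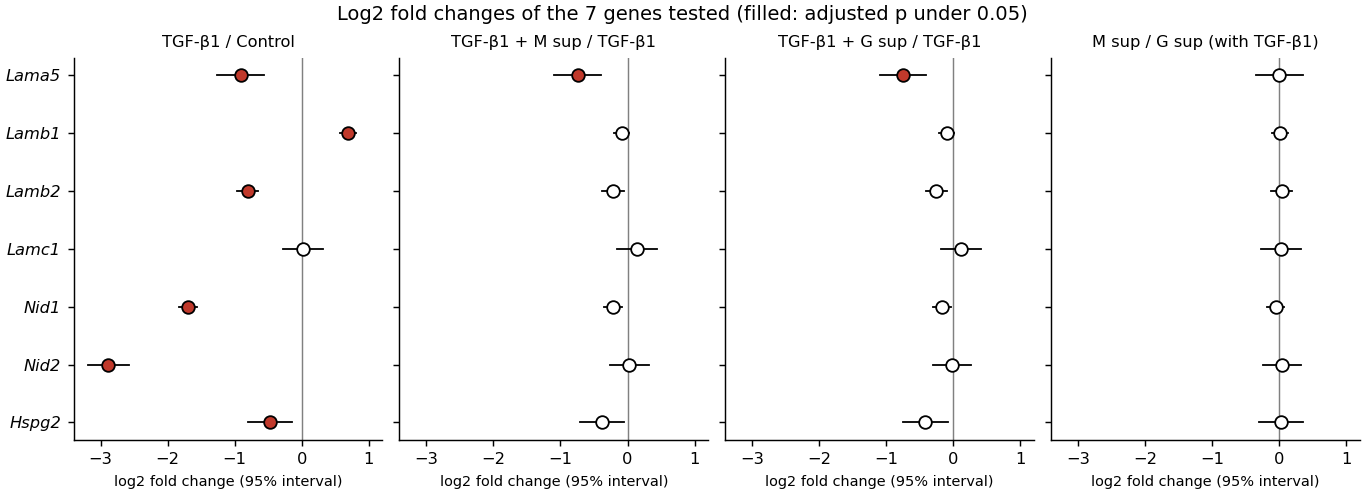
Log2 fold changes (horizontal axis) of the 7 genes tested, in 4 comparisons, with 95% intervals as lines (sup, supernatant). Filled points have an adjusted p under 0.05 in edgeR's test over all genes: 6 genes with TGF-β1 against Control, Lama5 alone for each supernatant, and none between the supernatants.

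Because FPKM is scaled by length, the chains could be set against each other within a library. The Lamb1 to Lamb2 ratio was 0.729, 0.704 and 0.708 in Control and 1.998, 1.97 and 2.07 with TGF-β1. Lamb2 was thus the more abundant β chain mRNA in untreated cells and Lamb1 in treated cells. The means were 0.714 ± 0.0132 and 2.01 ± 0.0501 (SD, n = 3; two-sided exact permutation test, p = 0.1, adjusted p = 0.25 over 20 ratio tests). With 3 libraries against 3, 0.1 is the smallest p this test can give.

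The sum of Lamb1 and Lamb2 changed little in size, from 41.4 ± 1.896 FPKM in Control to 40.0 ± 1.06 FPKM with TGF-β1, and its libraries overlapped. The γ1 chain, Lamc1, is given above. The sum of Lama2, Lama4 and Lama5 went from 2.58 ± 0.165 FPKM to 1.29 ± 0.0573 FPKM, without overlap. The ratio of this α sum to Lamc1 was 0.0940, 0.108 and 0.129 in Control and 0.0674, 0.0508 and 0.0503 with TGF-β1 (exact permutation test, p = 0.1, adjusted p = 0.25).

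Lama5 made up 89.0% ± 1.51 of the α sum in Control and 91.2% ± 1.31 with TGF-β1 (exact permutation test, p = 0.2, adjusted p = 0.4). The share of Lama4 was 2.91% ± 0.290 in Control and 1.75% ± 0.481 with TGF-β1 (exact permutation test, p = 0.1, adjusted p = 0.25). The remaining α chains, Lama1 and Lama3, are not in the α sum and had at most 0.0101 and 0.0548 FPKM as group means. Lama3 was below Lama4 in Control (0.0210 against 0.0753 FPKM). It was above Lama4 with TGF-β1 alone (0.0439 against 0.0228), with M-MDSC supernatant (0.0470 against 0.0140) and with G-MDSC supernatant (0.0548 against 0.0271). The Nid1 to Nid2 ratio was 4.12, 3.75 and 3.77 in Control and 9.60, 8.51 and 8.51 with TGF-β1, since Nid2 fell further than Nid1 (exact permutation test, p = 0.1, adjusted p = 0.25).

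**Figure D3:**
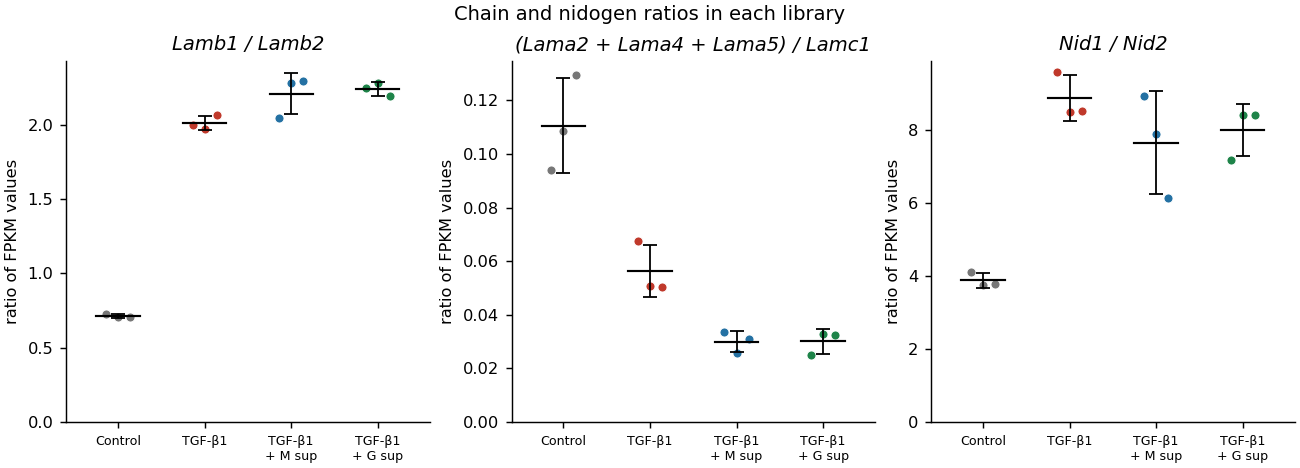
Ratios of FPKM values (vertical axis, starting at 0) in each library of the 4 groups (horizontal axis; sup, supernatant). Points are libraries, with the mean and SD of 3. The Lamb1 to Lamb2 ratio lies between 0.704 and 0.729 in Control and between 1.97 and 2.29 in all 9 treated libraries, and the α to γ ratio is lower with TGF-β1 than in Control and lower still with each supernatant.

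The next comparisons asked what each supernatant added to TGF-β1. Both share the TGF-β1 libraries as their reference, so they are not independent and their values are given side by side. Lama5 fell further with each supernatant and was the only one of the 7 genes tested that was called, lower in both. Over all genes, 4.78% were called with M-MDSC supernatant, 1.95% as lower, and 5.56% with G-MDSC supernatant, 2.46% as lower. By the fold change rule 0 of the 7 were called with either, against 2.18% and 2.17% of the genes. The median log2 fold changes of the 7 genes were -0.21 and -0.17, against -0.013 and -0.014 over all genes tested.

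Lama5 measured 0.824, 0.580 and 0.734 FPKM with M-MDSC supernatant and 0.553, 0.725 and 0.857 FPKM with G-MDSC supernatant. All 6 libraries were below the 3 TGF-β1 libraries, and none reached 1 FPKM. The log2 fold changes were -0.74 (SE 0.158, adjusted p = 0.0218) and -0.75 (SE 0.158, adjusted p = 0.0190). Lama5 passed the filter through its Control and TGF-β1 libraries, and without a filter the adjusted p-values were 0.0333 and 0.0259.

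The direction held in every setting, but the call did not. With M-MDSC supernatant, leaving out TGF-β1 replicate 1, 2 or 3 gave an adjusted p of 0.0724, 0.0742 or 0.0538, and leaving out M-MDSC replicate 2 or 3 gave 0.0753 or 0.0677. With G-MDSC supernatant, leaving out TGF-β1 replicate 1 or 2 gave 0.0608 or 0.0622, and leaving out G-MDSC replicate 1 or 2 gave 0.0512 or 0.0608.

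Lama2, under the filter, had 88, 99 and 58 counts with M-MDSC supernatant and 41, 47 and 77 counts with G-MDSC supernatant, all below the TGF-β1 libraries. Without a filter its log2 fold changes were -0.66 (adjusted p = 0.471) and -1.35 (adjusted p = 0.0465). Lama4 had 12, 14 and 20 counts with M-MDSC supernatant and 42, 34 and 15 counts with G-MDSC supernatant, and it was not called (adjusted p = 0.592 and 0.954 without a filter). The libraries of both supernatant groups overlapped with those of TGF-β1 for Lama4.

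The β chains were not called in the main fit. Lamb2 measured 12.8, 10.95 and 11.1 FPKM with M-MDSC supernatant, a log2 fold change of -0.21 (95% interval -0.37 to -0.055, adjusted p = 0.148). With G-MDSC supernatant it measured 10.9, 10.8 and 12.3 FPKM, a log2 fold change of -0.26 (95% interval -0.41 to -0.096, adjusted p = 0.0723). All 6 values were below those with TGF-β1 alone. Without M-MDSC replicate 1, Lamb2 was called lower with M-MDSC supernatant (adjusted p = 0.0346) and with G-MDSC supernatant (adjusted p = 0.0302). For G-MDSC supernatant it was also called without G-MDSC replicate 3 (adjusted p = 0.0333) and by DESeq2 (adjusted p = 0.0297). Lamb1 measured 26.3, 25.0 and 25.3 FPKM with M-MDSC supernatant and 24.5, 24.6 and 26.9 FPKM with G-MDSC supernatant, and both sets overlapped with TGF-β1 (log2 fold changes -0.086 and -0.10, adjusted p = 0.449 and 0.360).

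Lamc1 measured 26.9, 25.9 and 25.7 FPKM with M-MDSC supernatant and 24.8, 23.97 and 28.4 FPKM with G-MDSC supernatant. Its log2 fold changes were 0.14 and 0.12 (adjusted p = 0.663 and 0.757), with 95% intervals from -0.16 to 0.44 and from -0.18 to 0.42. The M-MDSC libraries lay above those of TGF-β1, but the means, 26.1 and 23.3 FPKM, differed by less than the SD of the TGF-β1 group, 2.89 FPKM.

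The nidogens were not called either. Nid1 measured 11.4, 11.9 and 11.9 FPKM with M-MDSC supernatant (log2 fold change -0.22, adjusted p = 0.0647) and 11.7, 11.6 and 13.3 FPKM with G-MDSC supernatant (-0.17, adjusted p = 0.150). All 3 M-MDSC libraries of Nid1 lay below every TGF-β1 library, and the 95% interval ran from -0.35 to -0.090. With DESeq2 and in the fit of the 2 groups alone, Nid1 was called lower with M-MDSC supernatant (adjusted p = 0.0287 and 0.0409). With G-MDSC supernatant replicate 3 lay within the TGF-β1 range, the 95% interval ran from -0.30 to -0.039, and without that library the log2 fold change was -0.24 and the adjusted p 0.0222. Nid2 measured 1.28, 1.51 and 1.94 FPKM with M-MDSC supernatant (log2 fold change 0.028, adjusted p = 0.951) and 1.62, 1.38 and 1.58 FPKM with G-MDSC supernatant (-0.017, adjusted p = 0.971). The 95% intervals for Nid2 ran from -0.26 to 0.31 and from -0.30 to 0.27, so a return towards the Control level of more than that was not seen.

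Hspg2 measured 21.2, 18.7 and 16.6 FPKM with M-MDSC supernatant, below all 3 TGF-β1 libraries (log2 fold change -0.38, SE 0.149, adjusted p = 0.218). With G-MDSC supernatant it measured 16.3, 15.7 and 23.3 FPKM, and replicate 3 lay within the TGF-β1 range (log2 fold change -0.42, SE 0.149, adjusted p = 0.163). Without that library the log2 fold change was -0.62 and the adjusted p 0.0127.

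Groups that did not overlap with TGF-β1 were found for 6 of the 9 genes with M-MDSC supernatant, against 24.0% of the genes tested. They were found for 3 of the 9 with G-MDSC supernatant, against 22.7%. The α to γ ratio was 0.0334, 0.0257 and 0.0308 with M-MDSC supernatant and 0.0248, 0.0329 and 0.0325 with G-MDSC supernatant, below every TGF-β1 library (exact permutation test, p = 0.1 and adjusted p = 0.25 for each). The Lamb1 to Lamb2 ratio was 2.21 ± 0.138 in the M-MDSC supernatant group and 2.24 ± 0.0473 in the G-MDSC supernatant group (exact permutation test, adjusted p = 0.4 and 0.25 against TGF-β1). The Nid1 to Nid2 ratio was 7.66 ± 1.42 and 8.00 ± 0.709 (exact permutation test, adjusted p = 0.462 and 0.25).

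Transcripts that are not expected of MSCs moved with the supernatants. The summed FPKM of 10 kidney genes was between 1.22 and 5.44 with TGF-β1 alone, 21.6, 13.4 and 85.03 with M-MDSC supernatant and between 49.6 and 63.6 with G-MDSC supernatant. The 6 hepatocyte genes were at 0 counts in all Control and TGF-β1 libraries, summed to 0.0767, 0.152 and 54.9 FPKM with M-MDSC supernatant, and to between 60.1 and 65.4 with G-MDSC supernatant. The 12 myeloid genes summed to between 4.43 and 7.38 FPKM and between 6.30 and 8.77 FPKM. Ly6c2 and Ly6g had group means of at most 0.211 FPKM there. Of the 5 myeloid genes tested, only Lyz2 was called with either supernatant, against 4.78% and 5.56% of all genes. Lyz2 went from 0.0573 FPKM with TGF-β1 alone to 1.54 and 1.87 FPKM (log2 fold changes 4.60 and 4.87, adjusted p = 0.0262 and 0.0183). It passed the filter through the supernatant libraries. S100a9 had 0 counts with TGF-β1 alone and means of 0.576 ± 0.369 and 1.13 ± 1.96 FPKM. Lama5 measured 0.824 and 0.580 FPKM in the M-MDSC libraries with hepatocyte sums of 0.0767 and 0.152 FPKM, and 0.734 FPKM in the one with 54.9. The 8 endothelial genes summed to between 0.331 and 0.539 FPKM with M-MDSC and between 0.625 and 0.829 FPKM with G-MDSC supernatant, the latter above every TGF-β1 library. The 5 epithelial genes summed to between 0.634 and 1.26 FPKM and between 0.642 and 1.27 FPKM. The part of kidney, hepatocyte, myeloid, endothelial and epithelial transcripts in the result was not tested.

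Genes with long transcripts were also slightly lower with supernatant. The 2333 genes of at least 8 kb by the ratio of counts to FPKM had median log2 fold changes of -0.063 with M-MDSC and -0.036 with G-MDSC supernatant, against -0.013 and -0.014 for all genes. By this measure Lama5 (12.7 kb), Hspg2 (16.4 kb), Lamb1 (11.1 kb) and Lamc1 (9.22 kb) were in this class, and the fitted change of Lamc1 with supernatant was upwards, though not called. Lama2 (18.6 kb) and Lama4 (13.7 kb) were also that long but under the filter. The part of transcript length in the result was not tested.

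Between the supernatants, with TGF-β1 in both, no gene of the 7 was called by edgeR, and 0 had an unadjusted p under 0.05, while 0.125% of all genes tested were called. DESeq2 also called 0 of them. The log2 fold changes of M-MDSC over G-MDSC supernatant lay between -0.052 for Nid1 and 0.046 for Nid2, with adjusted p-values of at least 0.968. The intervals show what these libraries could have missed: they ran from -0.34 to 0.35 for Lama5, from -0.10 to 0.13 for Lamb1, from -0.12 to 0.20 for Lamb2 and from -0.30 to 0.36 for Hspg2. The Lamc1 interval ran from -0.27 to 0.33, that of Nid1 from -0.18 to 0.077 and that of Nid2 from -0.24 to 0.33.

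Set against untreated cells, both combined treatments called the same directions as TGF-β1 alone for 6 of the 7 genes, 1 higher and 5 lower, and these comparisons share the Control libraries with it. Over all genes, 35.2% were called with TGF-β1 and M-MDSC supernatant (16.4% higher, 18.9% lower) and 34.8% with TGF-β1 and G-MDSC supernatant (16.4% higher, 18.4% lower). The log2 fold changes for Lama5 were -1.65 and -1.66, for Lamb1 0.60 and 0.59, and for Lamb2 -1.02 and -1.06. For Nid1 they were -1.91 and -1.86, for Nid2 -2.85 and -2.90, and for Hspg2 -0.86 and -0.89 (adjusted p = 0.00113 and 0.000883 for Hspg2, lower for the others). Hspg2 was thus called in every leave-one-out fit against Control once a supernatant was present.

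Of the laminin chains outside the 9 genes, Lamb3 encodes the β3 chain of epidermal basement membrane. It rose from 0.111 ± 0.0390 to 1.03 ± 0.120 FPKM with TGF-β1 (log2 fold change 3.25, adjusted p = 1.40e-06). It passed the filter through its treated libraries, and without a filter the adjusted p was 1.48e-06. With supernatant Lamb3 measured 0.950 ± 0.0672 FPKM (M-MDSC) and 0.781 ± 0.0858 FPKM (G-MDSC) and was not called against TGF-β1 (log2 fold changes -0.13 and -0.42, adjusted p = 0.814 and 0.342). Lama3 had at most 67 counts in any library and, like Lama1 and Lamc3, stayed under the filter. In the edgeR fit without a filter, Lama3 was called higher with TGF-β1 (log2 fold change 1.09, adjusted p = 0.0224), unlike Lama2 and Lama4. Lama1 (0.94, adjusted p = 0.895) and Lamc3 (-1.33, adjusted p = 0.149) were not called there.

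Of 12 receptors for laminin and perlecan, 8 were tested. TGF-β1 raised 3 and lowered 5, where 34.0% of all genes tested were called, with a median log2 fold change of -0.32. The α subunits of the laminin-binding integrins diverged: Itga3 fell from 119 ± 2.20 to 30.9 ± 1.51 FPKM (log2 fold change -1.88, adjusted p = 1.16e-09) and Itga6 fell by 1.33 on the log2 scale (adjusted p = 1.66e-05), whereas Itga7 rose by 0.96 (adjusted p = 2.79e-05). Their partner Itgb1 rose by 0.66 (adjusted p = 8.39e-08), and the syndecan Sdc4, a heparan sulfate proteoglycan of the cell surface, fell by 0.99 (adjusted p = 2.68e-08). Dag1, dystroglycan, fell by 0.44 (adjusted p = 0.0222). With G-MDSC supernatant, Itga3 and Itga6 fell further (-0.30 and -0.58, adjusted p = 0.00296 and 0.0260), and 3 of the 8 were called lower, against 2.46% of all genes, while 0 were called with M-MDSC supernatant, against 4.78% called in either direction. The third of these genes was the syndecan gene Sdc2 (-0.18, adjusted p = 0.0277), named after its values were seen. With M-MDSC supernatant the log2 fold changes of Itga3, Itga6 and Sdc2 were -0.15, -0.23 and -0.10 (adjusted p = 0.129, 0.415 and 0.230), and tested directly, M-MDSC over G-MDSC supernatant, they were 0.16, 0.35 and 0.078, none called (adjusted p = 0.481, 0.676 and 0.847).

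Of 23 other basement membrane genes, 14 were tested. With TGF-β1, 7 rose and 5 fell (34.0% of all genes were called), with a median log2 fold change of 0.40. Npnt, nephronectin, fell by 2.58 (adjusted p = 8.39e-08), Tinagl1 by 1.85 (adjusted p = 1.65e-08), and Col4a5, a minor type IV collagen chain here, by 1.27 (8.06 to 3.20 FPKM, adjusted p = 4.44e-06), all on the log2 scale. The abundant type IV collagen chains, which are among the 14 but outside the 6 largest changes and are named here after their values were seen, rose: Col4a1 from 79.3 ± 1.11 to 123 ± 8.06 FPKM (log2 fold change 0.69, adjusted p = 2.93e-06) and Col4a2 from 60.0 ± 1.99 to 83.4 ± 3.82 FPKM (0.53, adjusted p = 5.73e-06). Col18a1, the collagen that releases endostatin, rose by 1.16 (adjusted p = 3.40e-05), as did the fibulin gene Fbln2 by 0.73 (adjusted p = 8.07e-08), while Fbln1 fell by 0.73 (adjusted p = 5.73e-06). The supernatants called 2 higher and 3 lower (M-MDSC) and 1 higher and 4 lower (G-MDSC) of the 14, where 4.78% and 5.56% of all genes were called. Col4a1 and Col4a2 were among those lower in both. Their log2 fold changes were -0.26 and -0.27 with M-MDSC supernatant (adjusted p = 0.018 and 0.00568) and -0.35 and -0.34 with G-MDSC supernatant (adjusted p = 0.0027 and 0.00116).

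Perlecan carries heparan sulfate chains, and 13 of 16 genes for their synthesis were tested. With TGF-β1, 5 rose and 3 fell (34.0% of all genes were called), with a median log2 fold change of 0.055. Ext1, a polymerase of the chain, rose by 0.97 (adjusted p = 4.11e-09), Hs6st1, which adds sulfate groups, by 0.92 (adjusted p = 5.79e-07) and the epimerase Glce by 0.71 (adjusted p = 3.07e-05), on the log2 scale. Ndst2, which starts sulfation, fell by 0.51 (adjusted p = 0.0041). The core protein gene Hspg2 and these enzymes therefore did not move in a single direction. With supernatant 0 of the 13 rose, and 2 (M-MDSC) and 1 (G-MDSC) fell, Hs6st1 in both (-0.30 and -0.38, adjusted p = 0.0121 and 0.00261). Of all genes, 1.95% and 2.46% were called lower in these comparisons.

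Of 11 proteases that cut laminins or perlecan or activate enzymes that do, 9 were tested, and 4 rose and 4 fell with TGF-β1 (34.0% of all genes were called), with a median log2 fold change of -0.21. Mmp9 rose from 0.214 ± 0.0929 to 1.13 ± 0.0915 FPKM (log2 fold change 2.43, adjusted p = 2.44e-05). It passed the filter through its treated libraries, and without a filter the adjusted p was 2.98e-05. Bmp1, which processes matrix precursors, rose from 20.5 ± 0.509 to 51.7 ± 1.95 FPKM (1.39, adjusted p = 2.85e-08). Plau, urokinase, fell by 1.43 (adjusted p = 2.04e-08), Plat, its tissue type relative, by 0.85 (adjusted p = 1.65e-06), Adamts5 by 1.89 (adjusted p = 5.89e-07) and Adamts1 by 0.94 (adjusted p = 9.95e-07), on the log2 scale. With G-MDSC supernatant Mmp9 rose again, by 1.01 on the log2 scale (adjusted p = 0.0306, 0.0418 without a filter), and was the only one of the 9 called, where 5.56% of all genes were called. With M-MDSC supernatant 0 of the 9 were called, against 4.78% of all genes. Tested directly, M-MDSC over G-MDSC supernatant, Mmp9 had a log2 fold change of -0.99 and was not called (adjusted p = 0.219). The myeloid gene Lyz2 was higher with both supernatants, and the part of myeloid transcripts in the Mmp9 level was not tested.

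**Figure D4:**
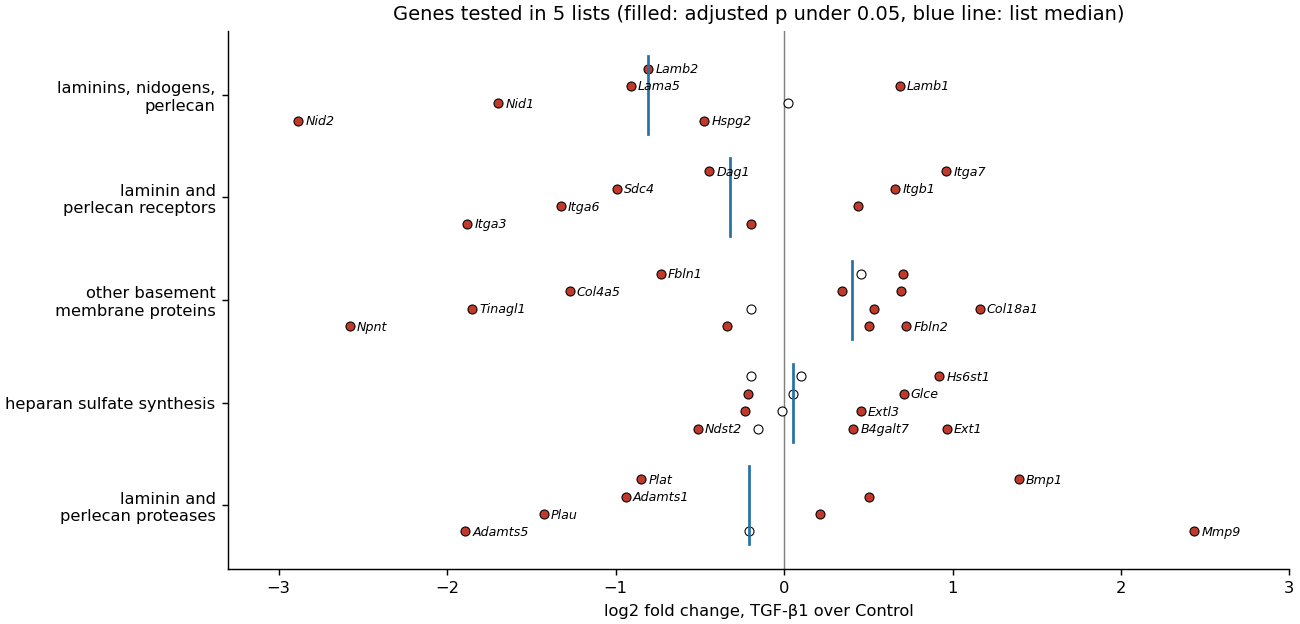
Log2 fold change of TGF-β1 over Control (horizontal axis) for each gene tested in 5 lists (vertical axis, spread within a list only for legibility). Filled points have an adjusted p under 0.05, with up to 6 named per list by the size of the change, and blue lines are list medians, from -0.81 for the laminins, nidogens and perlecan to 0.40 for the other basement membrane proteins.

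The genes whose levels followed 6 of the 7 most closely over the 12 libraries are given as a description, as Pearson's r of TMM-scaled log2 CPM (counts scaled to library size), where the libraries share the 4 groups and much of each r comes from the step between Control and the rest. Nid2 was nearest to Ampd3 (r = 0.998) and Nid1 to Ctnnal1 (r = 0.997). Lamb1 was nearest to Ltbp2, a latent TGF-β binding protein gene (r = 0.995), Lamb2 to Als2cl (r = 0.990) and Lama5 to the collagen receptor gene Mrc2 (r = 0.984). Lamc1 was nearest to Abl1, at the lowest r of these 6 (0.938). Among themselves, Nid1 and Nid2 had r = 0.988, Nid1 and Lamb2 r = 0.979, and Lama5 and Lamb2 r = 0.958, while Lamb1 had r = -0.970 with Nid2.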

How the data were processed

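Poly(A) RNA of the 12 MSC libraries was sequenced by the authors with a strand-marking dUTP kit on an Illumina NovaSeq. They aligned the reads to GRCm38 with HISAT2 2.0.4 and assembled transcripts with StringTie 1.3.4d. The tool that counted the reads is not given in the sources used here. The deposited table holds raw counts per gene and the FPKM the authors calculated from them, where 0.0001 stands for no count. Of the nonzero counts up to 12, 44.3% are 4, 8 or 12, so counts divided by 4 were an alternative.

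Counts were fitted with edgeR 4.0.16 (R 4.3.3), TMM scaling, the 4 groups in 1 fit and the quasi-likelihood F test, with Benjamini-Hochberg adjustment over the 12016 genes that reached 1 FPKM in 3 or more libraries. The test was checked on simulated counts. Ratios were compared by two-sided exact permutation tests over libraries (20 splits). Intervals are 95% intervals. Alternatives were RLE scaling, DESeq2 1.42.0, limma 3.58.1 on log2(FPKM + 1) and log2(FPKM + 0.1), other filters, fits of the 2 groups alone, a replicate block, a fold change rule (above 2 or below 0.5) and leaving out each library. Python 3.11.15, pandas 2.3.3 and SciPy 1.17.1 were used for tables and permutations.

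All 9 genes are named, of each list at most 6 called genes by the largest log2 fold change with TGF-β1, and for likeness the nearest gene tested; values of some single genes are left out and not reported here. Members and lists were chosen with earlier results of these data known. Samples were grouped by their titles. No counts differed so little between libraries of a group that they could be 1 library.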

Additional observations from a re-analysis of the deposited data

How the results depend on the processing

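Replicate numbers did not pair the libraries. Deviations from group means had a mean correlation of -0.00384 over 18 same-numbered pairs and 0.00197 over 36 others. With a replicate block, 5 of the 7 genes tested were called for TGF-β1 against Control (Hspg2 lost, adjusted p = 0.0502) and 0 for M-MDSC supernatant (Lama5, adjusted p = 0.0558).

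The fold change rule called 2, 0 and 0 genes for TGF-β1 against Control, M-MDSC and G-MDSC supernatant against TGF-β1. DESeq2 called 2 genes for each supernatant, Lama5 with Nid1 (M-MDSC, adjusted p = 0.0287) or Lamb2 (G-MDSC, adjusted p = 0.0297). Without a filter and with filterByExpr, all 9 genes were tested. Of these, 8 were called for TGF-β1 against Control, 1 for M-MDSC supernatant and 2 for G-MDSC supernatant, Lama5 and Lama2. With the 2 groups alone, 0 of the 7 were called for G-MDSC supernatant (Lama5, adjusted p = 0.0613). The fit of 2 groups also gave Lama5 an adjusted p of 0.0512 for M-MDSC supernatant, where it called 1 gene, Nid1 (adjusted p = 0.0409). Leaving out a library gave 5 to 6 genes for TGF-β1 against Control, 0 to 2 for M-MDSC and 0 to 4 for G-MDSC supernatant, the 4 without G-MDSC replicate 3. The causes were not tested.

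Limma on log2(FPKM + 1) called 1477 genes higher and 2725 lower with TGF-β1, against 1929 and 2153 in edgeR, and called the same number of the 7 genes. The fold change rule called 810 genes in all, and DESeq2 called 121 genes between the supernatants, against 15.

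Small values changed sign. With limma on log2(FPKM + 1) and log2(FPKM + 0.1), the log2 fold change of Lamc1 for TGF-β1 against Control was -0.022 and -0.023, and that of Nid2 for G-MDSC supernatant against TGF-β1 was 0.0048 and 0.0068. When single libraries were left out, Lamc1 ran from -0.13 to 0.12 for TGF-β1 and from -0.0080 to 0.25 for G-MDSC supernatant against Control, and Nid2 ran from -0.063 to 0.051 for G-MDSC and from -0.15 to 0.16 for M-MDSC supernatant against TGF-β1. Between the supernatants, the ranges were -0.071 to 0.24 for Hspg2, -0.15 to 0.16 for Lama5, -0.0086 to 0.062 for Lamb1, -0.039 to 0.11 for Lamb2, -0.023 to 0.11 for Lamc1, -0.087 to 0.017 for Nid1 and -0.13 to 0.17 for Nid2. Differences in ratios between the supernatants ran from -0.0762 to 0.0462 for Lamb1 to Lamb2, from -0.982 to 0.420 for Nid1 to Nid2 and from -0.00269 to 0.00207 for α to γ. The Lama5 share of the α sum differed by -2.17 to 0.561 percentage points between supernatants, by -1.71 to 1.02 for M-MDSC and by -0.242 to 1.33 for G-MDSC supernatant against TGF-β1, and the Lama4 share by -0.160 to 0.349 for M-MDSC supernatant against TGF-β1.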
